A study of Mus musculus with 10 samples.

Results

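The mouse mitochondrial chromosome carries 37 genes, and all 37 were among the 55487 gene rows of each RNA-seq table. Membership rests on annotated position, and no measured value enters it. They comprise 13 mRNA, 2 rRNA and 22 tRNA genes. The samples were E14 cells, a line of mouse embryonic stem cells, kept in serum medium (15% FBS) with LIF, a GSK inhibitor at 3 µM and a MEK1/2 inhibitor at 1 µM. The series holds 10 samples in 6 groups, and the group used here is RNA-seq of total RNA depleted of ribosomal RNA, with 3 replicates. The other groups map R-loops (BisMapR and MapR, with their controls) and were not analysed here. All 3 libraries come from 1 line under 1 condition, so there was no contrast between groups. The labels do not say that the replicates were separate cultures, so p-values measure only the spread between these samples.

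Mitochondrial DNA is transcribed as long precursors from both of its strands. Transcripts of the heavy strand carry most of the genes, and tRNAs sit between the other genes like punctuation, so that cutting out the tRNAs releases the mRNAs and rRNAs. The encoded proteins are core subunits of respiratory complexes I, III and IV and of ATP synthase, here called complex V. The nuclear genome also holds old insertions of mitochondrial DNA, which the annotation lists as pseudogenes.

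Estimated counts summed over all genes to 11420425 in replicate 1, 6467405 in replicate 2 and 5787357 in replicate 3. At these depths 3 counts, the limit that a count of 0 allows, equal 0.263, 0.464 and 0.518 CPM, the count scaled to the library total, for counting error only. Of 8 pluripotent cell markers, all 8 had a mean of at least 1 TPM, a level scaled by effective length, the positions in a transcript where a fragment can start. Their summed level was 1129 to 1581 TPM over the replicates. Fibroblast or feeder markers summed to 1.24 to 3.37 TPM, nearly all from Thy1, with Col3a1, Postn and Dcn at 0 counts. Primitive endoderm markers summed to at most 0.78 TPM and mesoderm or ectoderm markers to at most 1.31 TPM.

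The genes are packed end to end from mt-Tf, at base 1, to mt-Tp. Of the 36 neighbouring pairs in that span, 9 overlapped, 26 were separated by 0 to 5 bases and 1 by 32 bases. The stretch beyond mt-Tp, which ends at base 15422, holds no gene and was not counted as a gap. Heavy-strand transcripts carry 12 mRNAs, both rRNAs and 14 tRNAs. Light-strand transcripts carry mt-Nd6 and 8 tRNAs. All 37 transcript sequences of the annotation matched the GRCm38 mitochondrial chromosome (16299 bases) exactly. The longest overlaps on the same strand join mt-Atp8 with mt-Atp6 and mt-Nd4l with mt-Nd4. These are the pairs known to share a bicistronic mRNA. They are shown because the ratio of levels within each pair is among the results. Capitals mark the bases that belong to both genes, 43 in the first pair and 7 in the second.
mt-Atp8 and mt-Atp6 (chrM:7907-7989, + strand): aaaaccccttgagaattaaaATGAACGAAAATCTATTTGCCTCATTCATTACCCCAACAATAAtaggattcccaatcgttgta
mt-Nd4l and mt-Nd4 (chrM:10147-10193, + strand): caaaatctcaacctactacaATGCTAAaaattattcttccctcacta

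Base composition separated the strands. The 12 heavy-strand mRNAs held 5.9 to 16.1% G and at least 22.1% C, whereas mt-Nd6 held 28.1% G and 6.0% C. As annotated, 10 of the 13 mRNAs end in a full stop codon. The remaining 3, mt-Co3, mt-Nd4 and mt-Cytb, end in a lone T, which polyadenylation is known to extend to a stop codon. The junction of mt-Cytb with the tRNA gene mt-Tt shows such an end, with the tRNA in capitals.
mt-Cytb to mt-Tt (chrM:15269-15308, + strand): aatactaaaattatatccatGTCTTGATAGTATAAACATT

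The 37 genes held 7.30, 6.38 and 7.58% of all estimated counts in replicates 1, 2 and 3 (7.09% ± 0.628, SD, n = 3). The Wilson 95% interval was narrow in each library, for example 6.361 to 6.399% in replicate 2, and it covers counting error only. In bulk RNA, more mitochondrial RNA per cell and more cells rich in it cannot be told apart. Almost all of these counts, 99.9% ± 0.0219 (SD, n = 3), lay in the mRNA genes. The rRNA genes held 0.0231% ± 0.0172 and the tRNA genes 0.0564% ± 0.036 of mitochondrial counts (SD, n = 3). Genes of heavy-strand transcripts held 99.9% ± 0.023 (SD, n = 3).

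Part of the mitochondrial sequence has a near-perfect copy in the nucleus. Matching the mitochondrial transcripts to all annotated transcripts found 29 nuclear genes with at least 80% identity over at least 100 bases. Of these, 7 had at least 99% identity, and all 7 lay side by side on chromosome 1. That block, chr1:24611535-24616188 on the minus strand, aligned to chrM:6390-11042 with 2 mismatches and 1 gap in 4654 aligned bases, an identity of 99.94%. It runs from within mt-Co1, the core subunit of complex IV, to within mt-Nd4, a subunit of complex I. The annotation names its pieces Gm29216 (mt-Co1), Gm28661 (mt-Co2), Gm10925 (mt-Atp6), Gm28437 (mt-Co3), Gm28438 (mt-Nd3), Gm10222 (mt-Nd4l) and Gm28439 (mt-Nd4). The mt-Atp8 sequence lies inside the block, but none of these 7 pseudogenes corresponds to it.

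The copies differed from the mitochondrial genes by very few bases. Over their aligned lengths Gm28437, Gm28661, Gm10925, Gm10222 and Gm28439 had 0 mismatches. The first 4 of these stop 1 to 3 bases before the end of the mitochondrial gene. The ends of those mitochondrial genes are shown because the capitals mark the bases the annotated copy lacks. Only by these do the annotated transcripts of gene and copy differ, and the aligned block on chromosome 1 runs on past them.
mt-Co3 end (chrM:9361-9390, + strand): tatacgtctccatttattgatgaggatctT
mt-Co2 end (chrM:7667-7696, + strand): ttcgaaaactgatctgcttcaataattTAA
mt-Atp6 end (chrM:8578-8607, + strand): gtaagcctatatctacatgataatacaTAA
mt-Nd4l end (chrM:10144-10173, + strand): gtccaaaatctcaacctactacaatgcTAA

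Within the aligned stretches of mt-Co1 and mt-Nd3, each copy had a single substitution. Counted from 1 at the 5′ end of the mitochondrial gene, these were A1066T in Gm29216, 3 bases into its aligned stretch, and T3C in Gm28438. Both lie at the very start of the stretch aligned to the annotated copy, as the sequences show with the differing base in capitals. The mt-Nd3 sequence itself lies inside the chromosome 1 block.
mt-Co1 (chrM:6390-6408, + strand): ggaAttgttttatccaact
Gm29216 (chr1:24616170-24616188, - strand): ggaTttgttttatccaact
mt-Nd3 (chrM:9459-9476, + strand): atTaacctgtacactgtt
Gm28438 (chr1:24613102-24613119, - strand): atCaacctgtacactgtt

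Over the 7 genes, copies of at least 95% identity held 39.8% ± 1.44 (SD, n = 3) of the summed counts of gene and copies, and they held most of them for the 5 genes copied nearly whole. mt-Co3 (ENSMUSG00000064358), the third core subunit of complex IV, had 15603, 3310.4 and 5593 estimated counts in replicates 1, 2 and 3. Its copy Gm28437 had 124331, 73232 and 71062. For mt-Co2 (ENSMUSG00000064354), the complex IV subunit that receives electrons from cytochrome c, the gene had 9833, 3001 and 3973 counts. The copy Gm28661 had 113565, 59907 and 60299. In both cases the mitochondrial gene was lowest in replicate 2 and the copy exceeded the gene in every replicate.

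mt-Atp6 (ENSMUSG00000064357), a subunit of the proton channel of ATP synthase, had 17343, 3357 and 7939 counts. Its copy Gm10925 had 82100.25, 45421 and 47597. The 2 small complex I genes followed the same pattern. mt-Nd3 had 948, 697 and 486 counts beside 4242, 2337 and 2286 in Gm28438. mt-Nd4l had 545, 453 and 557 counts beside 10247, 5116 and 6005 in Gm10222. Over these 5 genes, each aligned to its annotated copy but for 1 to 3 bases, the copies held 77.0 to 95.7% of the summed counts of gene and copies.

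The 2 genes covered in part kept most of their counts. Gm29216 aligned to 31.3% of the length of mt-Co1 and held 30448, 19438 and 19675 counts beside 493086, 257417 and 260704 in mt-Co1. Gm28439 aligned to 63.6% of mt-Nd4 and held 4624, 2380 and 1127 counts beside 60820, 30928 and 33782 in mt-Nd4. Copies of at least 95% identity held 5.91 to 7.26% of the mt-Co1 sum, in which Gm13340 on chromosome 2 added 539.1, 710.7 and 284 counts to those of Gm29216. For mt-Nd4 the share was 3.23 to 7.14%.

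**Figure D1:**
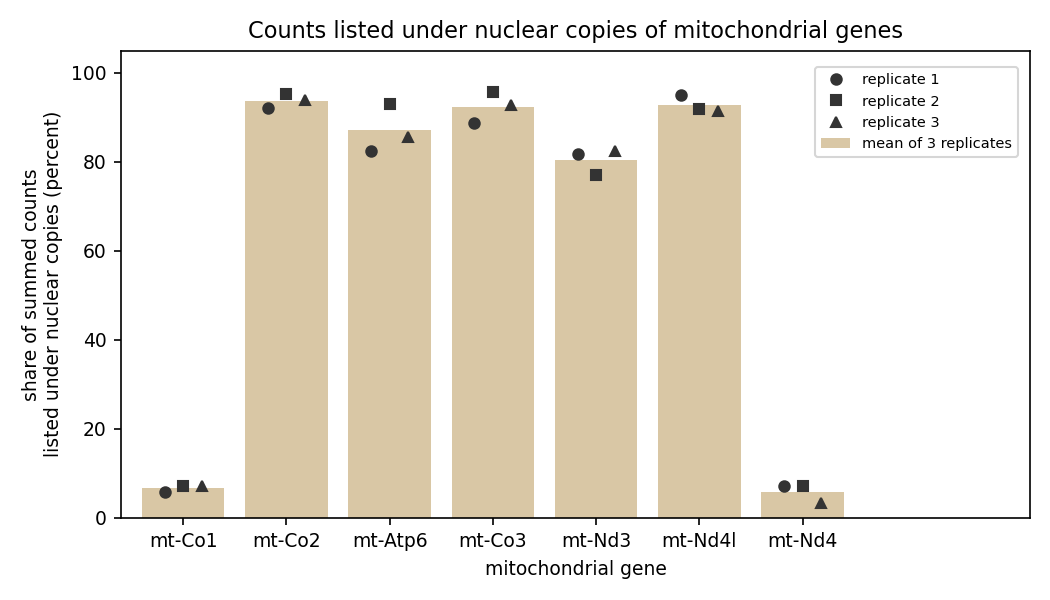
Share of summed counts (percent, y axis) listed under nuclear copies of at least 95% identity, for the 7 mitochondrial genes with a copy on chromosome 1 (x axis, in genome order). Bars are means of 3 replicates and symbols are single replicates. The 5 genes copied over nearly their whole length lie between 77.0 and 95.7%, and mt-Co1 and mt-Nd4 between 3.23 and 7.26%.

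Several measurements bear on this division. None of the 21 values of these 7 genes (7 genes in 3 replicates) was a whole number of counts within 0.02. After the counts of the nuclear copies of at least 95% identity were added, 21 of 21 were. With the 7 chromosome 1 copies alone, 15 of 21 were. Copies that had diverged further held almost nothing: the 18 copies under 95% identity held 7, 4 and 1 counts in all, and 15 of them had 0 counts in every replicate. The 4 copies between 95 and 99% identity held 700.3, 785.6 and 377.3 counts in all. The estimator named in the submitters' processing notes, RSEM, divides reads that match several transcripts. For the 7 genes and their copies the division is therefore uncertain, and how much of the sum came from the nuclear block was not tested. Values for these genes are given below both as deposited and with copies of at least 95% identity summed into the mitochondrial gene. The summing was planned for the share of all counts, and extended to the other values after the counts of the copies were seen.

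Gene and copies together held 10.5, 9.61 and 11.2% of all estimated counts (10.4% ± 0.793, SD, n = 3), against 7.09% without them. The 7 copies on chromosome 1 alone held 3.35% ± 0.214 (SD, n = 3) of all counts. By mean count Gm28437 ranked 5, Gm28661 ranked 7 and Gm10925 ranked 9 of all genes, above every mitochondrial gene but mt-Co1, which ranked 1.

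Of the complex IV genes, mt-Co2 and mt-Co3 were listed far lower than mt-Co1 unless the copies were summed. mt-Co1 had 12918, 9698 and 9727 TPM as deposited, the highest of the 37 genes in every replicate. The level with copies summed is given on the TPM scale, as the summed count divided by the effective length of the mitochondrial gene. On it mt-Co1 had 11554 ± 1886 (SD, n = 3), close to its deposited 10781 ± 1851. mt-Co2 had 446 ± 193 TPM as deposited and 6888 ± 1252 with the copies summed, and mt-Co3 had 539 ± 317 and 6838 ± 991 (SD, n = 3). By deposited means, mt-Co2 and mt-Co3 lay below all complex I mRNAs of the heavy strand except mt-Nd3 and mt-Nd4l. Once summed they lay above all of them in every replicate.

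Complex V has 2 mitochondrial genes. mt-Atp8, a short subunit of ATP synthase of 204 bases, had 8817, 6881 and 6217 TPM, and no copy to sum. mt-Atp6 had 757 ± 422.5 TPM as deposited and 5632 ± 999 with the copies summed (SD, n = 3). The sole complex III gene, mt-Cytb, which encodes cytochrome b, had 1755 ± 235 TPM (SD, n = 3) and no copy of at least 95% identity.

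Complex I has 6 heavy-strand mRNAs. mt-Nd1 had 2285 ± 499, mt-Nd4 1520.2 ± 255, mt-Nd5 1254 ± 287 and mt-Nd2 903 ± 201 TPM (SD, n = 3). Summing moved mt-Nd4l from 154 ± 26.8 to 2181 ± 275 and mt-Nd3 from 156 ± 33.0 to 794 ± 115 (SD, n = 3). It moved mt-Nd4 to 1616 ± 287 and the other 3 by under 1 TPM. mt-Nd2 follows mt-Nd1 along the chromosome with 3 tRNA genes between them, and its TPM was 0.395 ± 0.015 (SD, n = 3) of that of mt-Nd1.

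The order of levels with copies summed was mt-Co1, mt-Atp8, mt-Co2, mt-Co3, mt-Atp6, mt-Nd1, mt-Nd4l, mt-Cytb, mt-Nd4, mt-Nd5, mt-Nd2, mt-Nd3 and mt-Nd6. Each gene exceeded the next in all 3 replicates, with 3 exceptions. mt-Co2 exceeded mt-Co3 in 1 replicate, mt-Nd1 exceeded mt-Nd4l in 1, and mt-Nd2 exceeded mt-Nd3 in 2, so these neighbours were not ordered. The places of the short genes depended on effective length. Per annotated base mt-Atp8 ranked 5, below mt-Atp6 in all 3 replicates, and mt-Nd4l came after mt-Cytb and mt-Nd4, a scale added after the values were seen. The highest heavy-strand mRNA exceeded the lowest by 103, 61.0 and 81.8 times as deposited in replicates 1, 2 and 3, and by 14.9 ± 0.689 times with the copies summed (SD, n = 3). Across the 12 genes, Spearman's rank correlation of level with start position was -0.233 ± 0.0246 as deposited and -0.347 ± 0.0603 with the copies summed (SD, n = 3). These genes share precursors and libraries, and effective length enters every level, so the correlation is a description only.

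**Figure D2:**
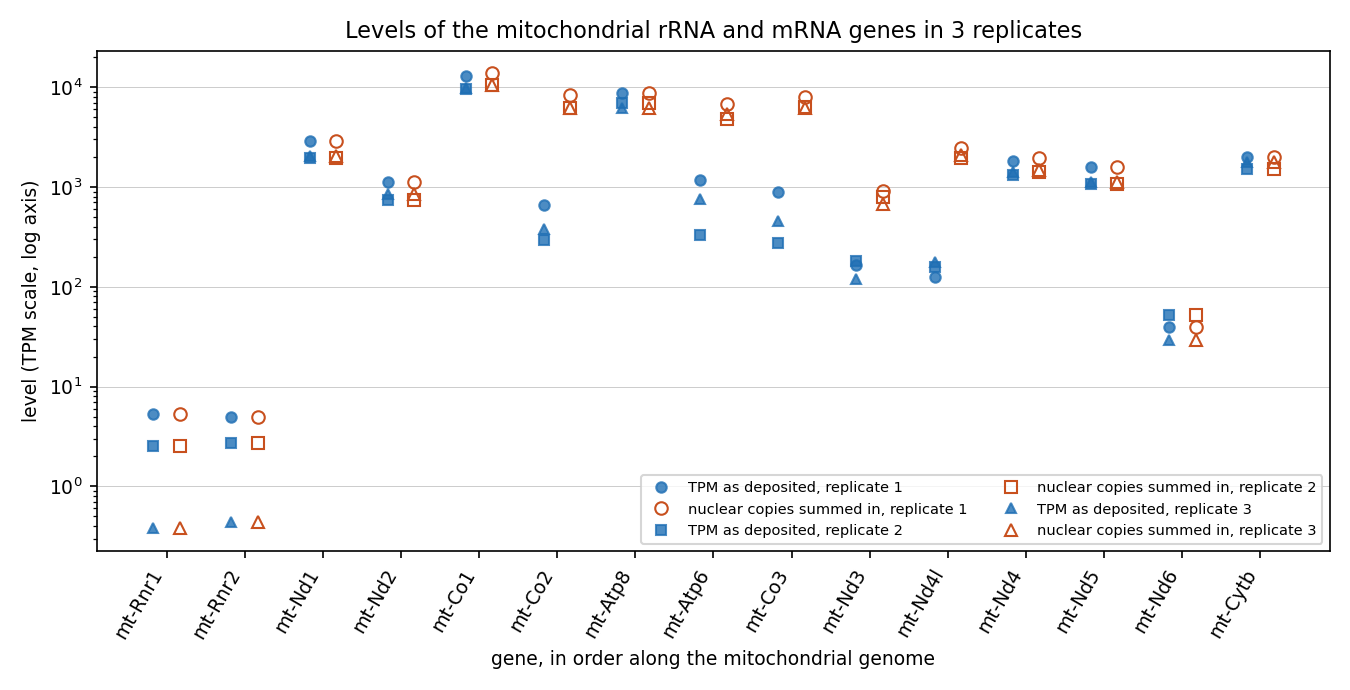
Level (TPM scale, log axis) of the 2 rRNA and 13 mRNA genes in genome order, per replicate. Filled symbols are TPM as deposited and open symbols have nuclear copies of at least 95% identity summed in. Summing raises mt-Co2, mt-Atp6, mt-Co3, mt-Nd3 and mt-Nd4l, while mt-Nd6 and the rRNA genes stay lowest.

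The 2 overlapping pairs gave opposite ratios as deposited. mt-Atp8 exceeded mt-Atp6 in TPM by 7.50, 20.8 and 8.15 times in replicates 1, 2 and 3. mt-Nd4l lay at 0.0694, 0.120 and 0.125 of mt-Nd4. After summing, mt-Atp8 lay at 1.31, 1.43 and 1.16 times mt-Atp6, and mt-Nd4l at 1.28, 1.37 and 1.42 times mt-Nd4. On the log2 scale the first ratio went from 3.44 ± 0.82 to 0.37 ± 0.15 and the second from -3.30 ± 0.47 to 0.44 ± 0.08 (SD, n = 3). The remaining offset depended on how length was treated. Per annotated rather than effective base, mt-Atp8 lay at 0.543 ± 0.0183 of mt-Atp6 and mt-Nd4l at 0.804 ± 0.059 of mt-Nd4 with the copies summed (SD, n = 3). The effective length of mt-Atp8 was 61.27 to 73.61 bases of its 204.

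**Figure D3:**
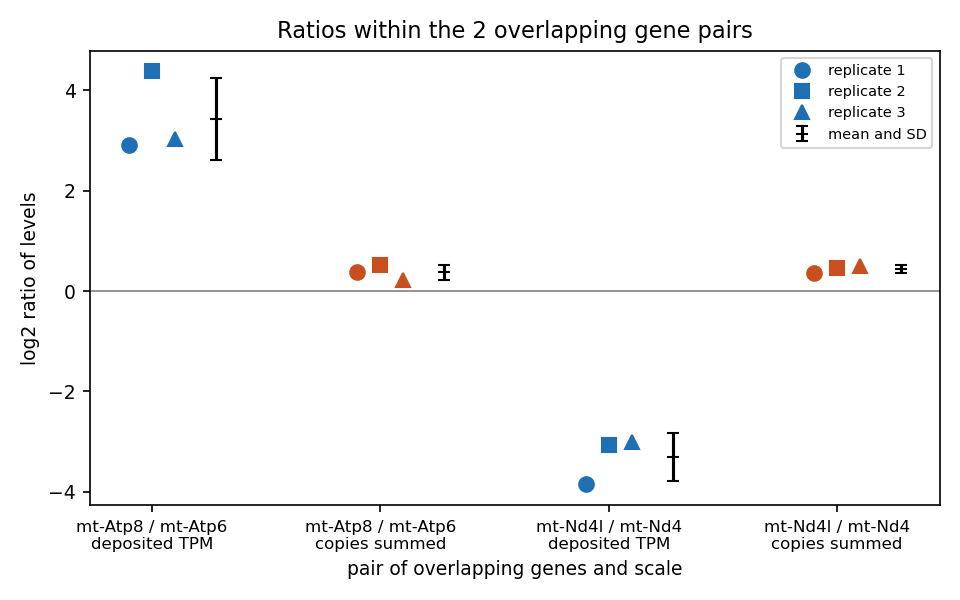
Log2 ratio of levels within the overlapping pairs mt-Atp8 with mt-Atp6 and mt-Nd4l with mt-Nd4, as deposited TPM (blue) and with nuclear copies summed (orange). Symbols are replicates, and the black mark and bar are the mean and SD. The deposited means of 3.44 and -3.30 move to 0.37 and 0.44.

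The light-strand mRNA was below the others in every replicate. mt-Nd6 (ENSMUSG00000064368), a complex I subunit and the sole mRNA of light-strand transcripts, had 409, 366 and 213 counts and 39.5, 51.8 and 29.1 TPM in replicates 1, 2 and 3. The median of the 12 heavy-strand mRNAs exceeded it by 34.9, 17.4 and 33.7 times as deposited (28.7 ± 9.79, SD, n = 3). After summing, the median ratio was 58.9 ± 18.6 (SD, n = 3). The lowest heavy-strand mRNA exceeded mt-Nd6 by 3.44 ± 0.564 times as deposited and by 20.2 ± 5.13 times after summing (SD, n = 3). The last 14 bases of mt-Nd6 overlap the end of mt-Nd5 on the opposite strand. The kit is directional, but the strand setting of the counting is not given in the sources used here, so the mt-Nd6 level is uncertain. Its closest nuclear copy, Gm11408 on chromosome 4 at 93.64% identity, had 0 counts in every replicate.

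Ribosomal RNAs of the mitochondrion had few counts in these depleted libraries. mt-Rnr1, the small subunit rRNA, had 118, 39 and 6 counts, and mt-Rnr2, the large subunit rRNA, had 196, 74 and 12. Both were highest in replicate 1 and lowest in replicate 3. Per annotated base, mt-Rnr2 lay at 1.00, 1.15 and 1.21 times mt-Rnr1. The neighbouring mRNA mt-Nd1 exceeded mt-Rnr2 by 536, 668 and 4420 times per base, with mt-Rnr2 at 12 counts in replicate 3. The 354 annotated nuclear rRNA genes had the same order of replicates, at 491, 222 and 109 CPM in all. How far depletion set these values was not tested.

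Of the 22 tRNA genes, 1 had more than 3 counts in any replicate. mt-Tm, the methionine tRNA gene, had 340, 125 and 427 counts, which made up 99.2 to 99.8% of tRNA counts. mt-Tv, mt-Tl1 and mt-Tw had at most 2 counts each, and 18 tRNA genes had 0 in every replicate, a value that allows up to 3 counts. All 22, of 59 to 75 bases, had an effective length listed at 0 and so a TPM listed at 0. Effective length was 132.8 to 147.3 bases below annotated length for long genes, more than any tRNA measures. mt-Tm lies directly before mt-Nd2 with 0 bases between them. Its sequence is shown as the tRNA that carries the counts, with capitals on CAT, the letters of the methionine anticodon, which occur once in it.
mt-Tm (chrM:3845-3913, + strand): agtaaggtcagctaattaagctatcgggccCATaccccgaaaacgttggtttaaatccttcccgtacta

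Variation between replicates was tested across all genes with edgeR's goodness-of-fit test, which asks whether a gene varied more than genes of similar abundance. Of 12577 genes tested, 1.84% passed a Benjamini-Hochberg adjusted p of 0.05. Among the 15 mitochondrial genes that passed the low-count filter, 4 were called: mt-Tm (adjusted p 1.47e-07), mt-Rnr2 (4.46e-05), mt-Atp6 (0.00687) and mt-Nd4l (0.0479). mt-Co3 had an adjusted p of 0.0535 by the same test. Without the low-count filter edgeR called mt-Co3 (adjusted p 0.0455) and mt-Rnr1 (0.00222) as well, and no longer mt-Nd4l (0.081). The unfiltered fit called 5 of 19 mitochondrial genes, beside 1.19% of 24217 genes in all. On summed counts 1.83% of 12568 genes passed, and 2 of the 15 mitochondrial genes, mt-Tm and mt-Rnr2. By that fit mt-Atp6 and mt-Nd4l both had an adjusted p of 1. The copies held 82.56 to 93.12% of the summed mt-Atp6 counts and 91.51 to 94.95% of those of mt-Nd4l. Their main copies, Gm10925 and Gm10222, were not called as deposited.

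The calls rested on different replicates. mt-Atp6 had 1519, 519 and 1372 CPM as deposited, with replicate 2 far below the other replicates, and its call was lost without replicate 2. Its highest CPM exceeded its lowest by 2.93 times as deposited and by 1.27 times after summing. Over the 7 genes with a copy on chromosome 1, the median coefficient of variation of CPM was 29.7% as deposited and 6.9% with the copies summed. The 6 other mRNAs had a median of 11.8%. mt-Nd4l was not called in any fit that left out 1 replicate. Without replicate 3, mt-Atp6, mt-Co2 and mt-Co3 were called as deposited (edgeR adjusted p 3.07e-12, 0.000943 and 4.09e-10), beside 0.683% of all genes.

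The calls of mt-Tm and mt-Rnr2 went in opposite directions. In log2 CPM scaled by TMM, an edgeR scaling for library composition, mt-Tm in replicate 3 was 1.20 above its mean over replicates. mt-Rnr2 in replicate 3 deviated by -1.69 from its own mean. Short genes as a whole were high in replicate 3, with a median deviation of 1.10 over the 11 tested genes under 100 bases, mt-Tm among them, and 0.63 over the 189 under 300 bases. The part of gene length in the mt-Tm call was not tested. Leaving out replicate 3 ended both calls (edgeR adjusted p 0.748 for mt-Tm and 0.999 for mt-Rnr2), and leaving out replicate 2 ended that of mt-Tm (0.0544). On summed counts without replicate 3, edgeR called 0 of 16 mitochondrial genes, beside 0.669% of all genes, and 4 had an unadjusted p under 0.05, beside 3.74%.

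The heavy-strand mRNAs ordered the replicates alike. After summing, replicate 3 had the highest TMM-scaled CPM in 12 of 12 heavy-strand mRNAs and replicate 2 the lowest in 11. By CPM of total counts replicate 3 was highest in 10, and on the TPM scale replicate 1 was highest in all 12, so the direction depended on the scaling. On summed counts the edgeR test called none of the 12, beside 1.83% of all genes. As deposited, it called mt-Atp6 and mt-Nd4l. The 12 share precursors and are not independent. mt-Nd6 had its highest TMM-scaled CPM in replicate 2, where most heavy-strand mRNAs were lowest, but was not called (edgeR adjusted p 0.956 with the copies summed). The difference between the strands was not tested.

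**Figure D4:**
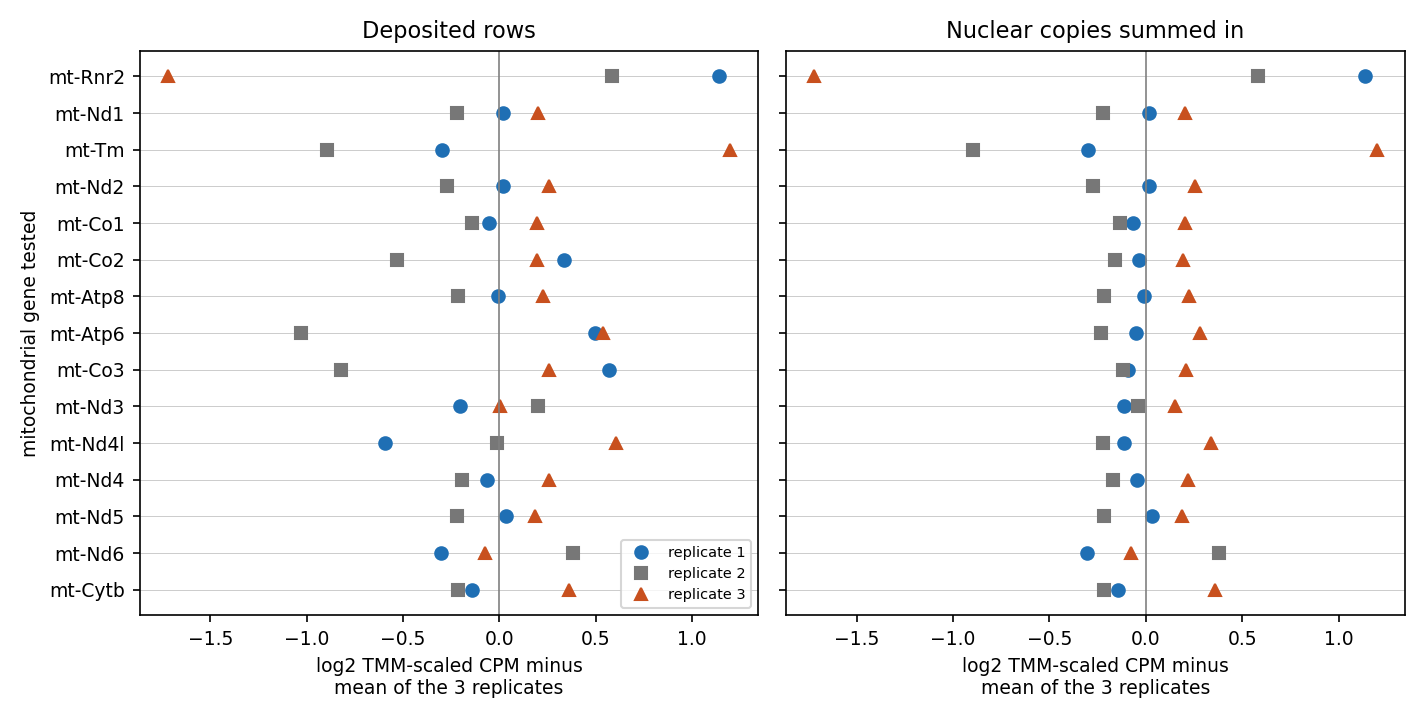
Log2 TMM-scaled CPM minus the mean of the 3 replicates (x axis) for the 15 mitochondrial genes tested (y axis, in genome order), as deposited (left) and with nuclear copies summed in (right). Symbols are replicates. The spread of mt-Co2, mt-Atp6, mt-Co3, mt-Nd3 and mt-Nd4l narrows on the right, while mt-Rnr2 and mt-Tm stay wide.

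The nuclear genes that transcribe and maintain the mitochondrial genome were expressed at much lower levels than the heavy-strand mRNAs. Of 45 such nuclear genes, 44 had a mean of at least 1 TPM, with a median of 4.84 TPM. In these rRNA-depleted libraries the mitochondrial rRNA genes had means below that median, of 2.75 (mt-Rnr1) and 2.72 TPM (mt-Rnr2). Over replicates 1, 2 and 3 mt-Rnr1 had 5.32, 2.54 and 0.38 TPM and mt-Rnr2 5.0, 2.72 and 0.44. mt-Nd6 had a mean of 40.1 TPM. None of the 45 was called as variable by the edgeR test, either with TMM or with DESeq2 size factors, beside 1.84% called among all genes. None had an unadjusted p under 0.05, beside 6.96% of all genes.

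Among the transcription genes, Polrmt, the mitochondrial RNA polymerase, had 6.67, 3.89 and 3.59 TPM. Tfam, which also packages mitochondrial DNA, had 9.21 ± 1.77 TPM, Tfb2m, the initiation factor, 4.77 ± 1.72, and Tefm, the elongation factor, 5.48 ± 1.15 (SD, n = 3). Genes for cutting out tRNAs included Hsd17b10 at 16.2 ± 0.942 TPM and Trmt10c at 4.84 ± 0.699 TPM, which act at the 5′ ends with 1110008L16Rik at 4.72 ± 1.41 TPM. Elac2, which cuts the 3′ ends, had 9.93 ± 3.15 TPM (SD, n = 3).

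Slirp and Lrpprc, partners that stabilize mitochondrial mRNAs, had 28.1 ± 1.64 and 15.4 ± 2.61 TPM (SD, n = 3). Of the decay genes, Pnpt1, the polynucleotide phosphorylase, had 25.6 ± 3.68 TPM and its helicase partner Supv3l1 8.79 ± 1.65 (SD, n = 3). Trnt1, which adds the CCA end to tRNAs, was the highest of the 45 at 34.7 ± 3.39 TPM. Among replication genes, Ssbp1, the single-strand binding protein, had 25.5 ± 3.24 TPM and Twnk, the helicase, 1.94 ± 0.326 (SD, n = 3). Top1mt, the mitochondrial topoisomerase, was the gene under 1 TPM, at 0.723 ± 0.143 (SD, n = 3). Mterf1a and Mterf1b, which are close paralogs, and Tfb2m and Trnt1 had fractional counts in every replicate, and Ssbp1 in replicate 1, so reads were divided with other genes and these values are uncertain.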

How the data were processed

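RNA-seq of 3 E14 replicates was analysed, grouped and numbered from the sample titles. Total RNA was rRNA-depleted and made into directional libraries, per the labels' protocols. STAR and RSEM are among the tools, and mm10 is the build, per the submitters' processing notes, which give no role, order or version. The annotation release and strand setting are not given in the sources used here. Per the file headers, the deposited tables list for each gene an expected count, which is not normalized. TPM and FPKM stand beside it in the deposited tables, and FPKM was not used. Length and effective length, other columns of the deposited tables, were used as given.

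Members were the genes of the mitochondrial chromosome in GENCODE vM21 (GRCm38), matched by Ensembl ID. Nuclear copies were found with blastn 2.17.0 (sense strand, at least 80% identity, at least 100 aligned bases). Copies of at least 95% identity were summed into the mitochondrial gene. Sequences were read from the RefSeq GRCm38 genome with samtools 1.23.1. Replicate variation was tested with edgeR 4.0.16 in R 4.3.3 on rounded counts: TMM, filterByExpr, intercept-only design, trended dispersion, goodness of fit, Benjamini-Hochberg adjustment over all genes at 0.05. Tested on simulated data with 12205 genes, this recovered 5 of 50 genes changed 2-fold in 1 replicate and 48 of 50 changed 4-fold, with 1 false call. The simulation gave every gene the same dispersion and left out genes of low total count, so it does not measure recovery in these data. Log2 deviations added 0.5 to each count. Python 3.11.15, pandas 2.3.3 and scipy 1.17.1 did the rest. Alternatives changed the unit, scaling (DESeq2 1.42.0 size factors), filter, genes and replicates. All 37 members, the listed nuclear genes and copies with a mean of at least 10 counts could be named, and other genes named were chosen after their values were seen. The rule for members uses position alone, but the gene set and the lists were chosen with earlier results of these data known.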

Additional observations from a re-analysis of the deposited data

How the results depend on the processing

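The 12 results were recomputed under 78 alternatives, 59 planned and 19 chosen after seeing the data. In all, 48 stayed within the spread or count limit set, 28 moved and 2 reversed. The causes were not tested. The rRNA values rest on as few as 6 counts, and the parts of depth and depletion in them were not tested. The tRNA genes at 0 are shorter than the length lost in effective length, and so is mt-Tm, which had 340, 125 and 427 counts. The parts of length and depth in the zeros were not tested.

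The mitochondrial share of counts, 7.09%, became 2.79% of TPM, 10.4% with nuclear copies added and 10.4% with copies of at least 99% identity. Leaving out 1 replicate gave 6.84 to 7.44%. The mRNA share of mitochondrial counts became 99.98% of TPM, 98.996% per annotated kilobase and 99.946% with the copies summed, and 99.91 to 99.93% without 1 replicate. The tRNA share became 0.0% of TPM, where effective length is listed at 0, and 0.983% per annotated kilobase, and was 0.0358 to 0.0693% without 1 replicate. The rRNA share stayed within 0.0157 to 0.0325% under every alternative. The median ratio to mt-Nd6, 28.7, became 45.8 without length scaling, 61.0 with a mean for the median and 58.9 with the copies summed, and was 25.5 to 34.3 without 1 replicate.

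The log2 ratio of mt-Atp8 to mt-Atp6 became 2.18 per annotated kilobase and 0.37 with the copies summed, and was 2.97 to 3.70 without 1 replicate. That of mt-Nd4l to mt-Nd4, -3.30, became -4.06 per annotated kilobase and reversed to 0.44 with the copies summed. It was -3.45 to -3.03 without 1 replicate. The rank correlation of level with position became -0.123 without mt-Atp8 and mt-Nd4l and -0.347 with the copies summed.

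The count of varying mitochondrial genes, 4, was 1 to 3 without 1 replicate, lowest without replicate 2, and 2 with copies of at least 95% or at least 99% identity summed. With copies summed it was 2, 1 and 0 without replicate 1, 2 and 3. Over all genes the count, 232, was 63 to 93 without 1 replicate, lowest without replicate 2. With the copies summed as well it was 88 without replicate 1, 63 without replicate 2 and 91 without replicate 3. The median deviation of mitochondrial mRNAs in replicate 3, 0.22 by TMM, reversed to -0.13 on the TPM scale.

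No paired analysis was possible because no second group entered any result, and a replicate number needs a partner to form a pair.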

Other observations

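A second nuclear stretch with mitochondrial sequence held few counts. Gm13341, Gm13340 and Gm13339 lie side by side on chromosome 2 and match mt-Co2 at 95.91%, mt-Co1 at 97.60% and mt-Nd2 at 96.67% identity. Gm13340, aligned to mt-Co1 over all 1545 bases, had a mean of 511 estimated counts and was called as variable between replicates (edgeR adjusted p 0.0107). Its counts were fractional in every replicate, so reads were divided with other genes and this call is uncertain. mt-Co1, with a mean of 337069 deposited counts, was called neither as deposited nor with the copies summed. Gm13341 had a mean of 100.4 counts and Gm13339 of 2.37. Gm4076 on chromosome 13, aligned to mt-Nd5 over 954 bases at 95.18% identity, had a mean of 7.06 counts. Gm13339 and Gm4076 were named after their values were seen.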
